A study of Homo sapiens with 4 samples.

Results

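The 10 genes described here encode catalytic and regulatory subunits of phosphoinositide 3-kinase (PI3K): PIK3CA, PIK3CB, PIK3CD, PIK3C2A, PIK3C2B, PIK3C3, PIK3R1, PIK3R2, PIK3R3 and PIK3R4. They were taken by gene symbol from a table of 48162 genes, in which they filled 11 rows because PIK3R2 had 2 rows. The data came from 4 RNA-seq libraries of MDA-MB-231, an established human triple-negative breast cancer cell line. In 2 libraries the cells had received vehicle (the columns are headed DMSO), and in 2 they had received MGH-CP1, a small molecule that blocks the palmitoylation of TEAD transcription factors and with it their work with the co-activator YAP. Both groups were harvested at 24 h, and the dose is given as 10 µM in the sample labels and as 10 mM in the study's methods. All cells were of 1 unmodified line, and nothing in the sources says whether the 2 libraries of a group came from separate cultures, so the p-values measure the spread between these libraries only. The study asked whether blocking TEAD sets off a feedback and singled out PIK3C2B in that question, so PIK3C2B is set here beside the rest of its family.

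PI3K enzymes phosphorylate the inositol ring of membrane phosphoinositides, and the lipids they make recruit other proteins. The class I product recruits, among others, the kinase AKT. Class I enzymes pair a catalytic subunit with a regulatory subunit that keeps it quiet until a receptor recruits it. Class II enzymes, among them PIK3C2A and PIK3C2B, are large single-chain kinases that act on endocytic and other internal membranes, and the class III enzyme PIK3C3 (VPS34) works with PIK3R4 (VPS15) in endosome traffic and autophagy. In breast cancer PIK3CA is among the genes most often mutated.

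Since MGH-CP1 acts on TEAD, the sequence around each gene start was searched for the TEAD core GGAATG on both strands (CATTCC on the other strand). RefSeq windows of GRCh38.p14, from 250 bases before to 50 bases after a gene start, matched all 10 genes with 21 windows, some of which overlap each other. The core was present in 3 of these 21 windows (14.3%) and in 4928 of all 35116 windows (14.0%). The window of PIK3C2B, on the minus strand, and the 3 windows with the core are printed 5′ to 3′ with the core in capitals, because PIK3C2B is the gene set against the others.
PIK3C2B, chr1:204494756-204495055, minus strand: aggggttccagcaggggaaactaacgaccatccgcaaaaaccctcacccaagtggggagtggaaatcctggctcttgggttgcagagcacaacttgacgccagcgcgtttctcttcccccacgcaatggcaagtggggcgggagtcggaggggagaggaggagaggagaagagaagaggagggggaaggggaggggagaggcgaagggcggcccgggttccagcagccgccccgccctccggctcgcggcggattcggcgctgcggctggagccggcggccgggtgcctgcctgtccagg
PIK3C2A, chr11:17207937-17208236, minus strand: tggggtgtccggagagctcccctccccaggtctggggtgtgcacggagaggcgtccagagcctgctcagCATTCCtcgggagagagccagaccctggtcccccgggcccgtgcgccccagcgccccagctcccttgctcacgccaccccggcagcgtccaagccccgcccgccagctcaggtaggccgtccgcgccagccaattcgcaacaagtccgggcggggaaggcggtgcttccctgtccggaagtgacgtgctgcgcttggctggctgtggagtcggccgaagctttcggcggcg
PIK3C3, chr18:41954984-41955283, plus strand: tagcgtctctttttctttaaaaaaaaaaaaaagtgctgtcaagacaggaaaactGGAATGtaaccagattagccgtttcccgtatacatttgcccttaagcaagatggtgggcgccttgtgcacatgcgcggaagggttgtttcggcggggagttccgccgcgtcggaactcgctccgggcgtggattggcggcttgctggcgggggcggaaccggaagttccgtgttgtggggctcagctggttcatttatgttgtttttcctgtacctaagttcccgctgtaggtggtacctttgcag
PIK3CD, chr1:9691217-9691516, plus strand, 1 of 3 windows of this gene: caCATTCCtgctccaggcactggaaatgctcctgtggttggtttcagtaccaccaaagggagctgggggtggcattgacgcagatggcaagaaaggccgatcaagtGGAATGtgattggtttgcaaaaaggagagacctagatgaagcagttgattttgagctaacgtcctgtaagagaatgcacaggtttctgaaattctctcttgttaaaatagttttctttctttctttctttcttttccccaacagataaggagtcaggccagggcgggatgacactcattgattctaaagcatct
The core began 181 bases before the start in PIK3C2A, 196 bases before it in PIK3C3, and 248 and 144 bases before it in this window of PIK3CD. No core was found in the 300 bases of PIK3C2B, a window with 67.3% G or C and 23 CpG sites, against medians of 58.7% and 14 over all windows. Of the other motifs searched, the E-box CACGTG was in 0 of the 21 windows and in 7.26% of all windows. The SOX core ACAAAG, searched on both strands, was in 6 of the 21 windows (28.6%), those of PIK3CD, PIK3R1, PIK3R3 and PIK3R4, and in 16.1% of all windows. Several of these matching windows were those of PIK3R3, the gene with the most windows, so this share leans on that gene. These matches describe letters only, and say nothing of binding. From public data on binding to DNA (ChIP-seq) the paper reports that TEAD1 or TEAD4 could bind at the PIK3C2B promoter.

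Levels are given as FPKM, the fragments of a gene scaled by its length and by all fragments counted on the listed genes of that library. In vehicle, 25455533 and 25508824 fragments were counted, and after MGH-CP1 17997221 and 17577930. The share of mitochondrial genes was 0.447% and 0.418% in vehicle and 1.57% and 1.53% after MGH-CP1. Depth and this share therefore moved with treatment in every comparison, and the part of the mitochondrial share in the results was not tested. The line's markers VIM, CD44, AXL and FN1 lay between 86.3 and 293 FPKM in all libraries, and ESR1, PGR and CDH1 at 0.638 or below, whereas ERBB2 (24.7 to 28.4) and EPCAM (12.4 to 16.4) were not near 0. Of the markers of other cells, the leukocyte gene PTPRC reached 0.0321 at most and the fibroblast gene COL1A1 1.83. Their summed level was 1.33 and 1.39 in vehicle and 1.85 and 1.73 after MGH-CP1, nearly all of it COL1A1. The TEAD-YAP target CYR61 had 368 and 383 FPKM in vehicle and 216 and 229 after MGH-CP1 (log2 fold change -0.75, limma adjusted p = 3.29e-05), and CTGF (-0.66) and ANKRD1 (-0.66) fell as well.

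Of the 10 PI3K genes, 9 had a mean level of at least 1 FPKM and were tested among 12080 genes. PIK3C2B, PIK3CD and PIK3C3 rose, PIK3R3 and PIK3R4 fell, and PIK3CA, PIK3CB, PIK3C2A and PIK3R1 did not pass the test. Over all genes tested, 27.1% were called higher and 23.8% lower at a limma adjusted p under 0.05, so 3 higher and 2 lower of 9 is near that background. The median log2 fold change of the 9 genes was -0.05, against 0.01 over all genes. Fold changes are on the scale of log2(FPKM + 1), which understates the change of low genes, and in bulk RNA fewer cells with a transcript cannot be told apart from less transcript per cell. The plot of levels shows the family side by side.

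**Figure D1:**
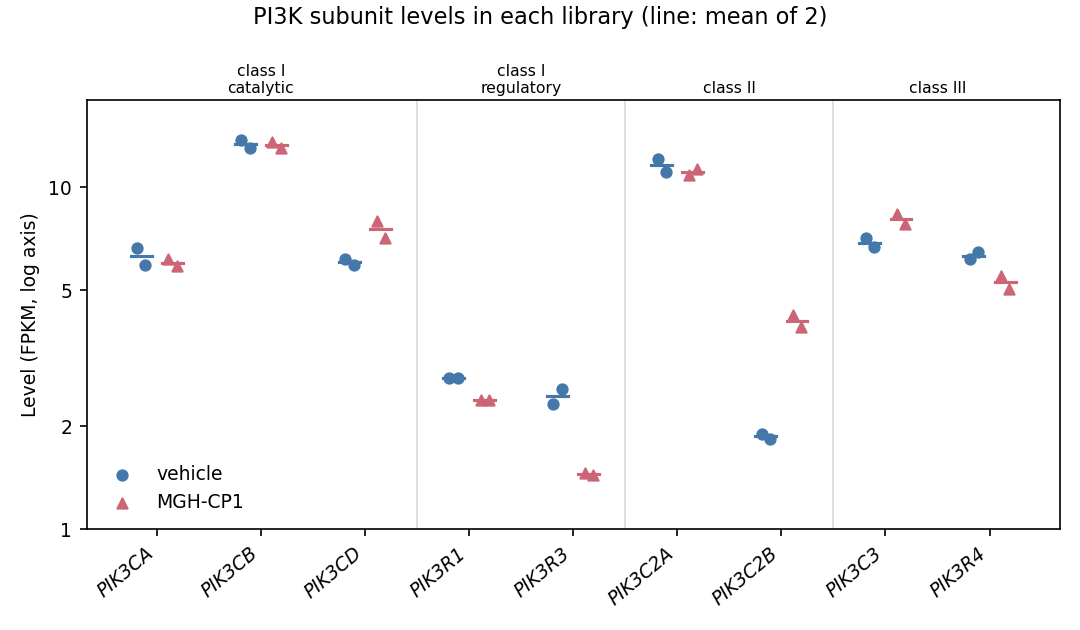
FPKM on a log axis for the 9 PI3K subunit genes with a mean of at least 1 FPKM, in 2 vehicle libraries (circles) and 2 MGH-CP1 libraries (triangles), with a line at each mean. PIK3C2B moved from a mean of 1.87 to 4.07 FPKM, while PIK3CB and PIK3C2A stayed at the top of both groups.

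PIK3C2B (ENSG00000133056, chr1:204391756-204463852, minus strand, in the hg19 coordinates of the table) was the lowest of the 9 genes in vehicle. It had 1.90 and 1.84 FPKM there, from 372 and 360 fragments, and 4.24 and 3.90 FPKM after MGH-CP1, from 587 and 527 fragments. Both MGH-CP1 libraries lay above both vehicle libraries, with means of 1.87 ± 0.0461 and 4.07 ± 0.242 (SD, n = 2) and a ratio of means of 2.18. The log2 fold change was 0.82 (SE 0.10, 95% interval 0.60 to 1.04, limma adjusted p = 2.99e-04), and 403 of the 12080 genes had a larger one. The study chose PIK3C2B for its rise in these same libraries and in public data on knockdown of YAP and TAZ. The limma p is therefore not independent evidence of the rise. By qPCR the paper also found PIK3C2B higher after MGH-CP1 in MDA-MB-231 and other lines. The same held there after knockdown of YAP and TAZ, and in another line after a different TEAD inhibitor. The paper further reports less PIK3C2B with active mutants of YAP or TAZ, and after silencing of the TEAD cofactor VGLL3. By the exact permutation test over the 4 libraries the two-sided p was 0.333, the smallest that 2 against 2 allows, so the call needs the pooling of variance across genes that limma performs. With the gene's own variance alone the adjusted p was 0.0620. With all libraries thinned to equal depth the log2 fold change was 0.83 (limma adjusted p = 6.55e-04). Random thinning keeps the expected FPKM, so this shows only that the call held with fewer fragments. What else may have come with the gap in depth was not tested. On the opposite strand the gene overlaps RP11-739N20.2, which had 34 and 58 fragments in vehicle and 34 and 50 after MGH-CP1 and so overlapped between the groups.

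The other class II gene did not follow. PIK3C2A (chr11:17099277-17229530, minus strand), which supports clathrin-mediated endocytosis, had 12.1 and 11.1 FPKM in vehicle and 10.9 and 11.3 after MGH-CP1, and the groups overlapped. Its log2 fold change was -0.06 (SE 0.07, 95% interval -0.22 to 0.10, limma adjusted p = 0.490). Within each library the change of PIK3C2A was 0.88 lower than that of PIK3C2B on the log2 scale (difference -0.88, SE 0.09, 95% interval -1.07 to -0.69). PIK3C2A stood 6.38 and 6.05 times as high as PIK3C2B in vehicle and 2.56 and 2.90 times as high after MGH-CP1. PIK3C2B made up 13.6% and 14.2% of the summed class II level in vehicle and 28.1% and 25.7% after treatment. PIK3C2A shares 58 bases on its own strand with the ribosomal protein gene RPS13, which had between 4491 and 6677 fragments per library.

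Among the class I catalytic subunits PIK3CB and PIK3CA did not pass the test. PIK3CB (p110 beta, chr3:138372860-138553780, minus strand) had 13.8 and 13.0 FPKM in vehicle and 13.6 and 13.0 after MGH-CP1, the highest of the family in both groups. PIK3CA (p110 alpha, chr3:178865902-178957881, plus strand) had 6.67 and 5.92 FPKM in vehicle and 6.17 and 5.90 after MGH-CP1. For neither gene were the groups apart, with log2 fold changes of -0.01 for PIK3CB (95% interval -0.16 to 0.13, limma adjusted p = 0.895) and -0.05 for PIK3CA (95% interval -0.24 to 0.14, limma adjusted p = 0.627). The signs were not fixed either, since both turned positive when vehicle replicate 1 was left out (0.03 and 0.02).

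PIK3CD (p110 delta, best known from leukocytes, chr1:9711790-9789172, plus strand) was the class I catalytic gene that rose. It had 6.18 and 5.94 FPKM in vehicle, from 862 and 831 fragments, and 8.00 and 7.13 FPKM after MGH-CP1, from 789 and 687 fragments. The groups did not overlap, the ratio of means was 1.25, and the log2 fold change was 0.28 (SE 0.08, 95% interval 0.09 to 0.46, limma adjusted p = 0.0207). The call did not hold without vehicle replicate 2 (limma adjusted p = 0.0723), without MGH-CP1 replicate 1 (0.128), with no filter on low values (0.0904), with quantile normalization (0.0518) or with per-gene variance (0.147). The leukocyte marker PTPRC was at or near 0 in every library. On the opposite strand PIK3CD shares 89 bases with CLSTN1, which had between 7418 and 10100 fragments, and its antisense neighbour RP11-558F24.4 had 7 fragments in each vehicle library and 18 and 15 after MGH-CP1, whose part in the result was not tested. PIK3CD held 23.2% and 23.9% of the summed class I catalytic level in vehicle and 28.8% and 27.4% after MGH-CP1.

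Of the class I regulatory subunits 1 gene passed the test, and it fell. PIK3R3 (p55 gamma, chr1:46505812-46642160, minus strand) had 2.33 and 2.57 FPKM in vehicle, from 332 and 368 fragments, and 1.46 and 1.44 FPKM after MGH-CP1, from 147 and 142 fragments. Its groups did not overlap, the ratio of means was 0.591, and its log2 fold change was -0.49 (SE 0.11, 95% interval -0.74 to -0.25, limma adjusted p = 0.00589). With limma voom on the recovered fragments, which adds less to low values, the log2 fold change of PIK3R3 was -0.75. TSPAN1, on the opposite strand over 1416 bases of PIK3R3, moved the other way, from 138 and 177 fragments in vehicle to 232 and 218 after MGH-CP1.

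PIK3R1 (p85 alpha, chr5:67511548-67597649, plus strand) showed a clean gap between groups without passing the test. It had 2.76 FPKM in both vehicle libraries and 2.39 in both MGH-CP1 libraries, with a log2 fold change of -0.15 (SE 0.09, 95% interval -0.37 to 0.07, limma adjusted p = 0.218). PIK3R2 (p85 beta) could not be read. Its row ENSG00000105647 (chr19:18263626-18281350, plus strand) held 3 and 2 fragments in vehicle and 0 and 0 after MGH-CP1, and its row ENSG00000268173 held 0 in all 4 libraries. These rows share 17383 bases on the same strand, and the second one also covers 4956 bases of IFI30, and how shared fragments were counted is not given in the sources used here, so these values are no measure of expression.

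Summed over each class, the regulatory subunits of class I had 5.11 and 5.35 FPKM in vehicle and 3.85 and 3.83 after MGH-CP1, a log2 ratio of -0.45 that leaves out what PIK3R2 may express. The class I catalytic sum was 26.7 and 24.9 FPKM in vehicle and 27.8 and 26.1 after MGH-CP1, and these groups overlapped. There were thus 5.21 and 4.65 catalytic for each regulatory FPKM in vehicle and 7.21 and 6.81 after MGH-CP1, values that describe RNA and not protein.

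In class III the kinase rose and its partner fell, both at the edge of the test. PIK3C3 (chr18:39535171-39667794, plus strand) had 7.10 and 6.70 FPKM in vehicle and 8.39 and 7.81 after MGH-CP1, with both MGH-CP1 libraries above both vehicle libraries. Its log2 fold change was 0.20 (SE 0.07, 95% interval 0.03 to 0.38, limma adjusted p = 0.0498). PIK3R4 (chr3:130397779-130465673, minus strand), the scaffold that holds the kinase in its complexes, had 6.16 and 6.46 FPKM in vehicle and 5.52 and 5.04 after MGH-CP1, with both MGH-CP1 libraries below. Its log2 fold change was -0.22 (SE 0.08, 95% interval -0.41 to -0.04, limma adjusted p = 0.0491).

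Both class III calls sat at the threshold. Each was lost whichever library was left out, and at equal depth the limma adjusted p was 0.0745 for PIK3C3 and 0.0559 for PIK3R4. With median-ratio scaling of the libraries PIK3C3 had a log2 fold change of 0.16 (limma adjusted p = 0.113). With the replicate number as a block PIK3R4 had a limma adjusted p of 0.0533. The ratio of PIK3C3 to PIK3R4 was 1.15 and 1.04 in vehicle and 1.52 and 1.55 after MGH-CP1, while their sum was 13.3 and 13.2 FPKM in vehicle and 13.9 and 12.8 after MGH-CP1.

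Counted by overlap alone, 3 of the 9 genes (PIK3C2B, PIK3C3 and PIK3CD) had both MGH-CP1 libraries above both vehicle libraries, as did 39.8% of all genes tested. Another 3 (PIK3R1, PIK3R3 and PIK3R4) had both below, as did 37.4% of all genes. The plot of fold changes shows that PIK3C2B stood apart from the rest in size.

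**Figure D2:**
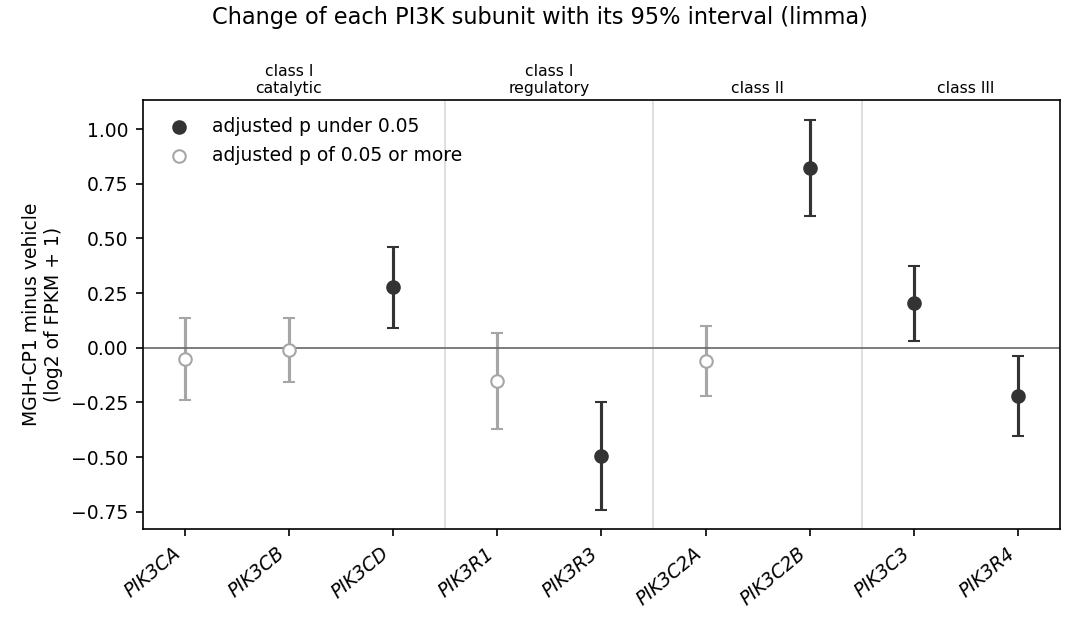
Log2 fold change (MGH-CP1 minus vehicle, log2 of FPKM + 1) of each PI3K subunit gene by class, with its 95% interval from limma, filled where the adjusted p was under 0.05. PIK3C2B at 0.82 lies above the interval of every other gene, the next being PIK3CD at 0.28, and PIK3R3 at -0.49 is the lowest.

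To describe how far the change of PIK3C2B lay from the others, the level of PIK3C2B was taken off that of each other gene in the same library before the fit. Since PIK3C2B was chosen for its rise, these differences are a description of its size and no independent test. All 8 other PI3K genes changed less than PIK3C2B at a limma adjusted p under 0.05, as did 91.6% of the 12079 other genes, and 162 genes changed more. The smallest difference among the PI3K genes was that of PIK3CD (-0.54, SE 0.09, 95% interval -0.74 to -0.35), followed by PIK3C3 (-0.62, SE 0.09). Differences of -0.83 for PIK3CB and -0.87 for PIK3CA were close to that of PIK3C2A. The regulatory genes were farthest away, with -0.97 for PIK3R1, -1.04 for PIK3R4 and -1.31 for PIK3R3. All 8 differences share the error of PIK3C2B, and most genes of any kind changed less than PIK3C2B.

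In level PIK3C2B remained a minor member. Ranked by mean FPKM in vehicle, PIK3CB stood first, then PIK3C2A, PIK3C3, PIK3R4, PIK3CA, PIK3CD, PIK3R1, PIK3R3 and PIK3C2B, and the libraries of PIK3R4 and PIK3CA, and of PIK3CA and PIK3CD, overlapped. After MGH-CP1 the order was PIK3CB, PIK3C2A, PIK3C3, PIK3CD, PIK3CA, PIK3R4, PIK3C2B, PIK3R1 and PIK3R3, with overlap between PIK3C3 and PIK3CD. PIK3C2B thus went from place 9 to place 7, past PIK3R1 and PIK3R3. Its share of the summed level of the 6 catalytic genes was 3.98% and 4.12% in vehicle and 8.28% and 7.95% after MGH-CP1. That sum was 47.8 and 44.5 FPKM in vehicle and 51.3 and 49.1 after MGH-CP1, as the stacked plot by library shows.

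**Figure D3:**
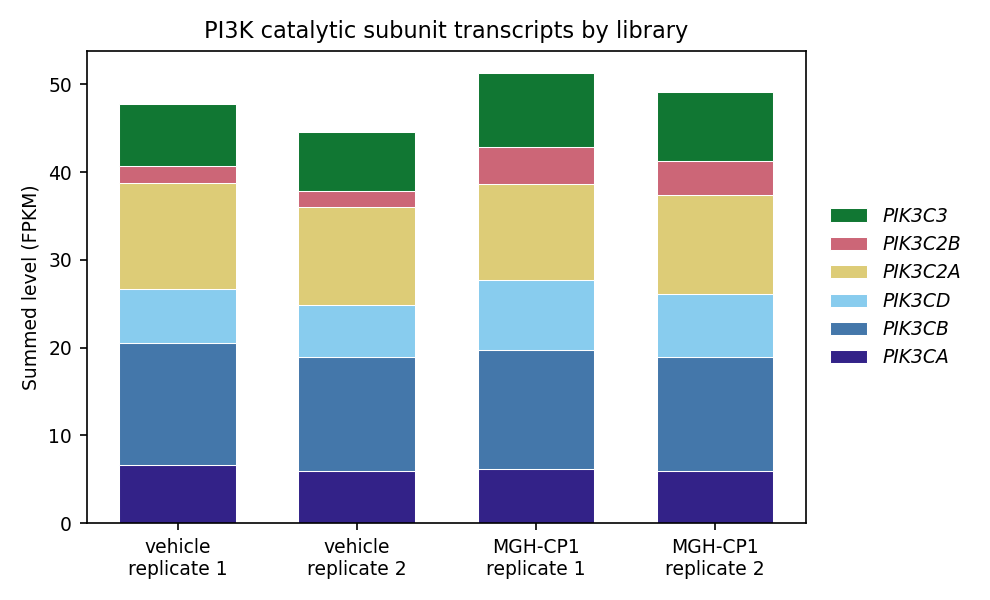
Summed FPKM of the 6 PI3K catalytic genes in each of the 4 libraries, stacked by gene. PIK3C2B is a thin band of 1.84 to 1.90 FPKM in the vehicle libraries and of 3.90 to 4.24 FPKM in the MGH-CP1 libraries, within sums of 44.5 to 51.3 FPKM.

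The genes whose pattern over the 4 libraries was most like that of PIK3C2B were MAGED2, RBP5, PLEKHB1, FN1 and SIRT7, by Euclidean distance between log2(FPKM + 1) values centred on each gene's mean (0.00780, 0.00856, 0.0251, 0.0332 and 0.0355). Their levels differed widely, from 0.660 FPKM in vehicle replicate 1 for RBP5 to 90.2 for MAGED2. Their log2 fold changes lay between 0.82 and 0.85, which the distance used to choose them fixes. With limma voom, which adds less to low values, they spread from 0.83 for FN1 to 1.31 for PLEKHB1 and 1.54 for RBP5, beside 1.12 for PIK3C2B. No PI3K gene was among them.

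Of 6 further genes named for PI3K, the subunit genes PIK3CG, PIK3C2G, PIK3R5 and PIK3R6 were hardly present and below the filter. PIK3AP1, which is not a subunit, was below the filter too. PIK3IP1, a membrane protein that restrains class I PI3K, had 0.557 and 0.932 FPKM in vehicle and 1.60 and 1.35 after MGH-CP1, with both MGH-CP1 libraries above. Its mean was 0.745 FPKM in vehicle and 1.47 after MGH-CP1, so it passed the filter on low values only through the group in which it was high, and its log2 fold change of 0.51 (SE 0.15, limma adjusted p = 0.0212) had to be positive. The call was lost with no filter on low values, with quantile normalization and without vehicle replicate 1 or MGH-CP1 replicate 1 (limma adjusted p = 0.0911 to 0.143).

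Of the 6 partners of the class III complex, 2 were higher, 1 was lower and 3 did not pass the test, beside 27.1% higher and 23.8% lower over all genes. The count of 3 called was 1 with median-ratio scaling and 1 without vehicle replicate 1, vehicle replicate 2 or MGH-CP1 replicate 1. BECN1 (Beclin), a core subunit of the complex, had 18.9 and 21.0 FPKM in vehicle and 24.2 and 22.8 after MGH-CP1 (log2 fold change 0.23, limma adjusted p = 0.0227). ATG14, which directs the complex to autophagy, had a log2 fold change of 0.24 (limma adjusted p = 0.0450), and KIAA0226 (Rubicon), which restrains it, one of -0.25 (limma adjusted p = 0.0290). With no filter on low values none of these 3 genes passed (limma adjusted p = 0.107 to 0.171).

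Of 18 listed phosphatases, enzymes that remove the phosphates PI3K adds or trim its products, 16 were tested. Of these 4 were higher and 3 lower (25% and 18.8%, beside 27.1% and 23.8% of all genes), with a median log2 fold change of -0.06. INPPL1 (SHIP2), which trims the class I product, had 41.8 and 43.6 FPKM in vehicle and 65.4 and 62.5 after MGH-CP1 (log2 fold change 0.57, SE 0.05, limma adjusted p = 9.38e-05). INPP5E rose from 11.9 and 11.7 FPKM to 18.4 and 16.5 (log2 fold change 0.52, limma adjusted p = 4.89e-04). MTMR2, a myotubularin that acts on the class III product, fell from 25.9 and 22.7 FPKM to 17.6 and 18.4 (log2 fold change -0.41, limma adjusted p = 0.00202).

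Among adaptors that bring PI3K to receptors, 1 of 6 was higher and 0 were lower, beside 27.1% and 23.8% of all genes. IRS1, the insulin receptor substrate, had 28.8 and 30.9 FPKM in vehicle and 35.8 and 36.5 after MGH-CP1 (log2 fold change 0.27, limma adjusted p = 0.00444). ITSN1, an endocytic scaffold that binds PIK3C2B, had 5.59 and 5.37 FPKM in vehicle and 4.87 and 4.79 after MGH-CP1, and its log2 fold change of -0.15 did not pass (limma adjusted p = 0.137).

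Kinases and effectors downstream of PI3K were the list with the most lower calls: of 14 tested genes 7 were lower and 2 higher, beside 23.8% and 27.1% of all genes, with a median log2 fold change of -0.16. SGK1, a kinase related to AKT, had 3.57 FPKM in both vehicle libraries and 1.73 and 1.95 after MGH-CP1 (log2 fold change -0.69, SE 0.10, limma adjusted p = 8.05e-04). MTOR fell from 15.0 and 14.3 FPKM to 9.51 and 10.5 (log2 fold change -0.51, limma adjusted p = 5.89e-04). PHLPP2, a phosphatase of AKT, fell from 3.84 and 4.44 FPKM to 2.51 and 2.73 (log2 fold change -0.50, limma adjusted p = 0.00385). With no filter on low values the call of PHLPP2 was lost (limma adjusted p = 0.0508). The list holds kinases and this phosphatase of AKT, so its count gives no single direction for the pathway. PDPK1, which phosphorylates AKT, had a log2 fold change of -0.15 that did not pass (limma adjusted p = 0.113).

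AKT1 and AKT2, kinases recruited by the class I product, were named after their values were seen. AKT1 had 20.7 and 20.8 FPKM in vehicle and 18.3 and 18.4 after MGH-CP1 (log2 fold change -0.16, limma adjusted p = 0.0352), a call that was lost whichever library was left out. AKT2 did not pass (log2 fold change 0.12, limma adjusted p = 0.144). These are RNA levels and give nothing on AKT phosphorylation.

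Of 10 other phosphoinositide kinases tested, 3 were higher and 2 lower, again beside 27.1% and 23.8% of all genes, and 2 were called without MGH-CP1 replicate 1. PIP4K2A rose from 22.5 and 22.3 FPKM to 31.7 and 29.5 (log2 fold change 0.43, limma adjusted p = 5.14e-04). PIP5K1A, which makes the substrate of class I PI3K, fell from 33.6 and 32.9 FPKM to 25.3 and 25.6 (log2 fold change -0.37, limma adjusted p = 6.42e-04), and PI4K2B fell too (log2 fold change -0.30, limma adjusted p = 0.00769). Over all lists 13 of 53 tested genes were higher and 13 lower (24.5% each), near the shares of all genes, as the plot of pathway genes shows.

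**Figure D4:**
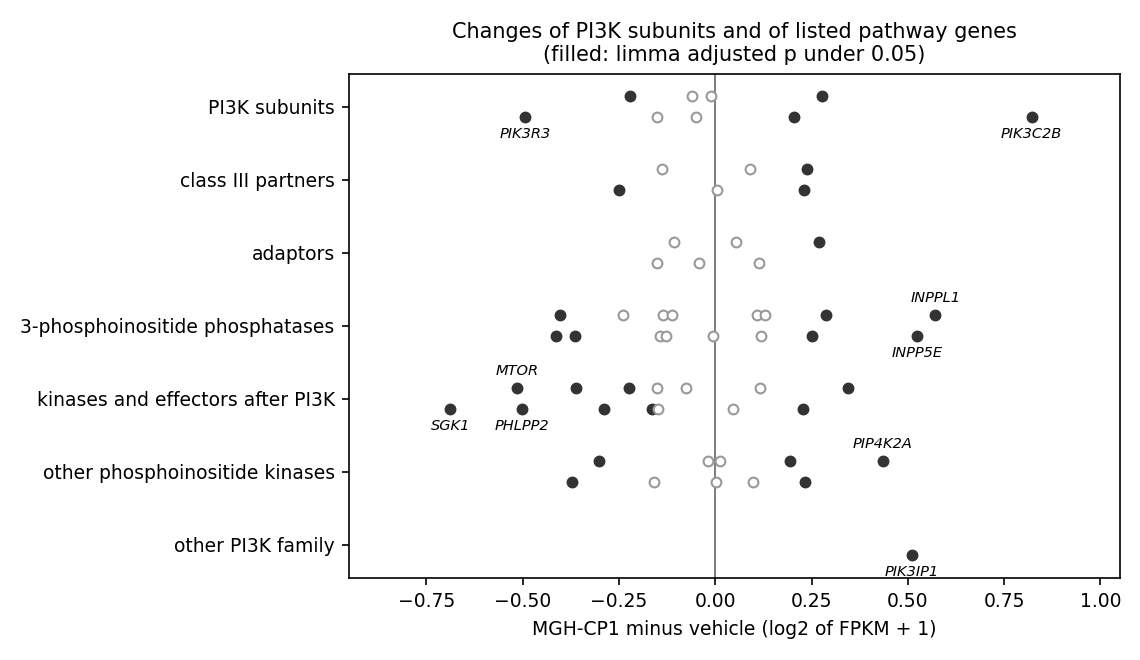
Log2 fold change (MGH-CP1 minus vehicle, log2 of FPKM + 1) of the 9 PI3K subunit genes and of 53 listed pathway genes, 1 point per gene, filled where the limma adjusted p was under 0.05. PIK3C2B at 0.82 lies to the right of all of them and SGK1 at -0.69 to the left.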

How the data were processed

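RNA of MDA-MB-231 cells was poly-T selected and sequenced as paired-end reads. The submitters' processing notes name CASAVA 1.8, STAR and hg19; the counting tool, its use of strand and the annotation are not given in the sources used here. The authors deposited FPKM, scaled by gene length and by the fragments on listed genes. Fragments were recovered from FPKM and length (100% of values whole within 0.02). From the FPKM, log2(FPKM + 1) of the 12080 genes with a mean of at least 1 was fitted with limma 3.58.1 in R 4.3.3 (eBayes with a trend, two-sided) with Benjamini-Hochberg adjustment and a threshold of 0.05, in place of the study's per-gene test. Replicates differed by more than sampling noise (chi-square per gene 4.14 in vehicle and 3.02 in MGH-CP1). The fit was tested on simulated data. Named genes were all PI3K members, PDPK1, PIK3IP1, ITSN1, 3 TEAD targets, the 3 largest called changes per list and the 5 genes nearest PIK3C2B in pattern; some genes of the lists are not reported here. Members, lists and rules were chosen with earlier results of these data known. PECAM1, a listed marker, was not found under that symbol.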

Additional observations from a re-analysis of the deposited data

How the results depend on the processing

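PIK3C2B kept its rise under every alternative in which it was tested, at 0.72 with quantile normalization to 1.12 with limma voom on recovered fragments, and 0.77 to 0.87 with each library left out, and it lost the call with per-gene variance (0.82, adjusted p = 0.0620). The count of 8 PI3K genes whose change differed from that of PIK3C2B was again 8 in every other fit that tested PIK3C2B, except with no filter. There it was 9, because the fit took in the PIK3R2 row with 3, 2, 0 and 0 fragments, which is no measure of expression. With a mean of at least 5 FPKM PIK3C2B was not tested. The count of PI3K genes called, 5, became 2 with no filter, 3 with quantile normalization, 3 at equal depth, 3 with a mean of at least 5 FPKM, 0 with per-gene variance in limma (3 at an unadjusted p under 0.05) and 2 to 3 with a library left out, and was 5 with limma voom. With a library left out, the lone sample of its group is assumed to vary like the others.

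Replicate numbers did not pair the libraries by any label, and the deviations of same-numbered libraries correlated at 0.0777 over 12080 genes. With the replicate block 4 PI3K genes were called, and the number of pathway genes called was again 26. The 26 pathway genes called became 16 with no filter, 0 with per-gene variance (24 at an unadjusted p under 0.05; 31 were called by limma voom) and 17 to 22 with a library left out. Per-gene variance called 9 genes higher and 4 lower of all, with 4947 at an unadjusted p under 0.05, and no filter called 1844 lower in place of 2869. The log2 fold change of PIK3CA ranged from -0.125 to 0.0223 and that of PIK3CB from -0.0502 to 0.0279 with a library left out, and PIK3CB was at 0.00264 at equal depth. The log2 ratio of class I regulatory sums was -0.50 with median-ratio scaling and -0.61 with quantile normalization. Where no setting's construction shows it, the cause was not tested. PIK3R2, with at most 3 fragments per library, gave no value to compare.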
